A study of Arabidopsis thaliana with 3 samples.

Results

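The loci described here are the 878 Arabidopsis genes at which the floral proteins PISTILLATA (PI) and APETALA3 (AP3) were found only far upstream. These loci were chosen by measured values, the window scores themselves. A locus was taken where every score that the authors' target tables give it lay 1000 to 2000 or 2000 to 3000 bp before the 5′ end, in each table that lists it, with no score nearer, inside or downstream. They make up 28.0% of the 3132 loci listed for either protein. Binding was mapped by chromatin immunoprecipitation and sequencing (ChIP-seq), which recovers the DNA a protein sits on. The groups were PI-GFP AP1-GR ap1 cal, AP3-GFP AP1-GR ap1 cal and a negative control, AP1-GR ap1 cal, with 1 library each. All were in the Ler background and all were precipitated with the Abcam antibody AB290 against green fluorescent protein (GFP). The negative control carries no GFP-tagged factor, both lists of bound regions were made against it, and its values were not analysed here. In all groups the ap1 cal mutations keep the shoot tip making meristems in place of flowers, and dexamethasone, at 10 µM, switches on the AP1-GR fusion, which is driven by the 35S promoter, so that many flowers start together. Plants were about 4 weeks old and grown at 20 °C, and flowers were taken on day 4 after treatment, at about stage 4 to 5. Which promoters drive PI-GFP and AP3-GFP is not stated in the labels.

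PI and AP3 are the B-class MADS-domain proteins of Arabidopsis. They bind DNA together, recognise short AT-rich elements called CArG boxes, and specify petals and stamens with partner MADS proteins. Plant genes are often controlled from just before the transcription start, but developmental regulators can also carry control elements several kilobases upstream, and in a compact genome such a site may lie at or within a neighbouring gene.

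The score of a peak is the authors' own value, called Poisson in the file headers, with no stated normalization, so it is used below to describe and rank peaks within a library. Each factor has 1 library and no replicate check, the depth is unknown, and the windows that chose the loci are part of the readout. For these reasons no p-values are given. Shares carry exact Clopper-Pearson 95% intervals and medians carry 95% intervals from order statistics, which cover counting over loci or peaks alone and say nothing of variation among plants. A locus absent from a table may have a peak under the authors' threshold. All positions are on TAIR10 as the authors' files give them.

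Both proteins were listed at 410 of the 878 loci, PI alone at 322 and AP3 alone at 146. The share listed for both was 46.7% (43.4 to 50.1), beside 49.7% of all listed loci. It was 49.0% (45.4 to 52.6) of the 747 loci with scores only 0 to 1000 bp upstream and 32.9% (28.9 to 37.1) of the 529 with scores only inside the gene. In these classes a locus listed for both had to pass in each table, so the shares are partly set by the choice. The far upstream loci were 732 of the 2544 PI targets and 556 of the 2146 AP3 targets. For PI, 309 had a peak in the 1000 to 2000 bp window alone, 376 in the 2000 to 3000 bp window alone and 47 in both. For AP3 the counts were 247, 279 and 30. The farther window thus held more of these loci than the nearer one in both libraries. The same split over all listed loci is not given here, so this describes the chosen loci alone.

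Scores of the far upstream loci were close to those of loci bound just before the gene. The highest PI score per locus ran from 28.1 to 3560, with a median of 89.0 (81.3 to 96.9), and the median of the loci with scores only 0 to 1000 bp upstream was 81.5 (75.9 to 88.8). The highest AP3 score ran from 27.6 to 1881, with medians of 61.3 (57.0 to 68.4) and 62.5 (58.2 to 72.9) for the same groups. These intervals overlap, but the groups are not independent, since a peak can be listed for loci of both. Among far upstream loci whose peak could be placed, 33.5% for PI and 36.2% for AP3 had it 0 to 1000 bp upstream of another locus and inside none. Those other loci may be of any class. The top AP3 score, 1881, was the same in both groups. The medians thus partly compare the same peaks, and the groups were not compared without shared peaks. Within the far upstream loci, PI medians were 89.5 where the highest score lay 1000 to 2000 bp away and 89.0 where it lay 2000 to 3000 bp away, and AP3 medians were 62.2 and 60.3. The AP3 median of loci with scores only inside the gene was lower, at 43.4 (40.1 to 45.9).

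Among the 366 genes of 11 lists of floral, hormone and control genes, 146 were listed as targets and 33 of these, 22.6%, were bound only far upstream, beside 28.0% of all listed loci. Of these 33, 19 were listed for both proteins (57.6%, beside 46.7% of all far upstream loci), 14 for PI alone (42.4%, beside 36.7%) and 0 for AP3 alone (beside 16.6%). The lists were unequal. Only 1 of 27 listed floral identity and MADS-box genes was bound only far upstream (3.70%), while 15 of those 27 had scores in windows of several kinds. The corresponding counts were 6 of 23 for floral meristem and flowering time, 6 of 16 for petal and stamen development and 4 of 11 for carpel development. They were 2 of 18 for organ boundary and polarity, 2 of 11 for TCP and growth-regulating factors and 4 of 9 for the gibberellin pathway. Auxin genes gave 4 of 13, the cytokinin, brassinosteroid and jasmonate genes together 4 of 13, photosynthesis 1 of 3 and housekeeping 0 of 3.

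**Figure D1:**
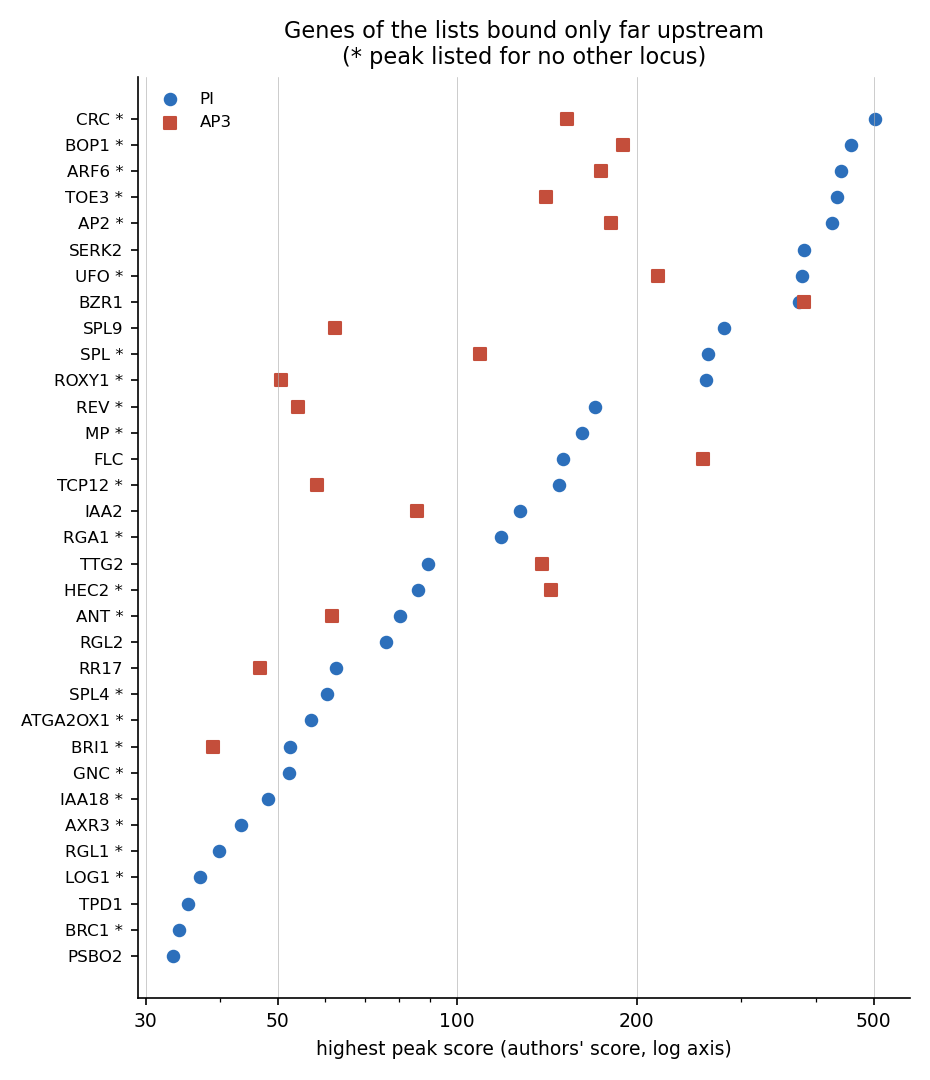
Peak scores (authors' score, log axis) of the 33 genes of the lists that were bound only far upstream, 1 row per gene, with PI and AP3 as separate points, 1 library per factor and an asterisk where no library lists the peak for another locus. The genes without an AP3 point are the 14 listed for PI alone, and CRC has the highest PI score at 502.

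Among the genes of the floral meristem, UFO, AP2 and TOE3 had the strongest far upstream peaks. UFO (AT1G30950) encodes an F-box protein that works with LEAFY to switch on the B-class genes themselves. It scored 379 in the PI library and 217 in the AP3 library, rank 294 of the PI targets and rank 280 of the AP3 targets. Both peaks lay 2000 to 3000 bp upstream, at chr1:11033693-11034144 for PI and chr1:11033730-11034081 for AP3, with maxima 2 bp apart. No other locus is listed for either peak.

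AP2 (AT4G36920) encodes an APETALA2-domain protein that specifies the outer floral organs and restricts the C-class gene AGAMOUS. It carried a peak in each far window in both libraries. The peak 1000 to 2000 bp upstream, at chr4:17398685-17399127 in the PI library, scored 426 for PI and 181 for AP3, and that 2000 to 3000 bp upstream scored 225 and 61.0. The maxima of the libraries lay 2 bp apart at the nearer peak and 5 bp apart at the farther one. The stronger peak was thus the same one for both proteins. A further strong peak on that chromosome, at chr4:17395629-17396141, was listed for no gene but LEJ2 (AT4G36910), which encodes a CBS-domain protein and lies next to AP2 in gene order. It scored 856 for PI and 655 for AP3, 2000 to 3000 bp upstream of LEJ2, with maxima 1 bp apart.

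TOE3 (AT5G67180), an APETALA2-type relative of AP2, also had 2 PI peaks of nearly equal score, 434 at 2000 to 3000 bp and 430 at 1000 to 2000 bp. The AP3 library had a peak of 141 at the nearer site alone. SPL9 (AT2G42200), a SQUAMOSA-promoter-binding protein gene that promotes the change to the reproductive phase, scored 280 for PI and 62.4 for AP3 in the 2000 to 3000 bp window. Its PI peak was broad, at 896 bp, and the maxima lay 465 bp apart, so the libraries did not place their summit at the same point. The PI peak of SPL9 also lay downstream of AT2G42190, while no other locus is listed for its AP3 peak. SPL4 (AT1G53160), of the same family, was listed for PI alone with 60.6.

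FLC (AT5G10140), the MADS-domain repressor of flowering that acts in the vernalization pathway, was the sole MADS-box gene of the lists bound only far upstream. It scored 150 for PI and 258 for AP3, 2000 to 3000 bp upstream. Both libraries had the maximum at the same base, and the peak at chr5:3181891-3182313 also lay inside the neighbouring locus AT5G10150. Its rank among the targets was 764 for PI and 229 for AP3.

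At genes of petal and stamen development the PI scores ran from 35.4 to 440. ARF6 (AT1G30330), an auxin response factor needed for stamen filament growth and flower maturation, scored 440 for PI and 175 for AP3 at chr1:10692870-10693467, 2000 to 3000 bp upstream. SPL (AT4G27330), also known as SPOROCYTELESS and needed to start sporogenesis in anthers, scored 264 and 109 in the same window, with maxima 23 bp apart. ROXY1 (AT3G02000), a glutaredoxin gene of petal initiation and anther development, scored 262 for PI and 50.7 for AP3 in the 1000 to 2000 bp window, with maxima 5 bp apart. These 3 genes had no other locus listed at their peaks.

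The other 3 genes of that list were listed for PI alone. SERK2 (AT1G34210), a receptor kinase gene that acts with SERK1 in anther cell fate, scored 382 at chr1:12455503-12455954, a peak that also lay 0 to 1000 bp upstream of AT1G34200. GNC (AT5G56860), a GATA factor that promotes chlorophyll formation, scored 52.3. TPD1 (AT4G24972), which encodes a small secreted protein of tapetum formation, scored 35.4, and its peak also lay downstream of AT4G24970.

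The 4 carpel genes bound only far upstream, a small number, were listed for both proteins. CRC (AT1G69180), the YABBY gene of carpels and nectaries, scored 502 for PI and 153 for AP3 at chr1:26011540-26012015, 2000 to 3000 bp upstream, and had a second, weak PI peak of 36.6 in the nearer window. HEC2 (AT3G50330), a bHLH gene of the female reproductive tract, scored 86.0 for PI and 144 for AP3 with both maxima at the same base, chr3:18659926-18660197 for PI. TTG2 (AT2G37260), a WRKY gene of trichomes and the seed coat, scored 89.3 and 139. The TTG2 peak also lay 0 to 1000 bp upstream of AT2G37240 and ADK in both libraries. ANT (AT4G37750), an APETALA2-domain gene of organ growth and ovule development, scored 80.1 and 61.6, with maxima 138 bp apart. HEC2 and TTG2 ranked higher among AP3 targets (475 and 488) than among PI targets (1287 and 1245).

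Of the boundary and polarity genes, BOP1 (AT3G57130), which encodes a BTB-ankyrin protein of organ boundaries, scored 457 for PI and 190 for AP3, 2000 to 3000 bp upstream at chr3:21144631-21145246. BOP1 had a second, weak PI peak of 33.9 in the nearer window. REV (AT5G60690), a class III homeodomain gene of the upper organ side, scored 170 and 54.1, 1000 to 2000 bp upstream. No other locus is listed for the highest peaks of either gene. Of the TCP genes, TCP12 (AT1G68800) scored 148 and 58.3 and BRC1 (AT3G18550) scored 34.1 for PI alone, close to the lowest PI scores. Both restrain branching.

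The 4 gibberellin genes, again a small number, were listed for PI alone, as were 36.7% of all far upstream loci. RGA1 (AT2G01570) scored 118, RGL2 (AT3G03450) 75.9 and RGL1 (AT1G66350) 39.8, and each encodes a DELLA protein that holds back gibberellin responses. The RGL2 peak also lay 0 to 1000 bp upstream of AT3G03456 and downstream of AT3G03460. ATGA2OX1 (AT1G78440), which encodes an enzyme that inactivates gibberellins, scored 56.9. AP3 values can be given for none of them, since the AP3 table does not list these loci.

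Of 4 auxin genes, IAA2 (AT3G23030), an Aux/IAA repressor gene, was listed for both proteins, at 127 and 85.8. MP (AT1G19850), the auxin response factor that flower initiation needs, scored 162 for PI alone at chr1:6884404-6884774. The Aux/IAA genes IAA18 (AT1G51950) and AXR3 (AT1G04250) scored 48.1 and 43.5 for PI alone. In brassinosteroid signalling, the transcription factor gene BZR1 (AT1G75080) scored 375 for PI and 382 for AP3, rank 299 and rank 144 among the targets. Its peak also lay 0 to 1000 bp upstream of AT1G75060 and AT1G75070. The receptor gene BRI1 (AT4G39400) scored 52.3 and 38.9, with maxima 243 bp apart. Of the cytokinin genes, RR17 (AT3G56380), a response regulator gene, scored 62.7 and 46.7, and LOG1 (AT2G28305), which encodes a cytokinin-activating enzyme, scored 37.0 for PI alone. The RR17 peak also lay 0 to 1000 bp upstream of AT3G56370 in both libraries. The photosynthesis gene PSBO2 (AT3G50820) scored 33.4 for PI alone, and its peak lay inside COR413-PM2.

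Of 25 listed miRNA loci, 5 were bound only far upstream (20.0%, beside 28.0% of all listed loci). The small RNA genes named next were picked after their values were seen. MIR156e (AT5G11977) and MIR156f (AT5G26147) encode the microRNA that restrains the SPL family of phase-change genes, SPL9 and SPL4 included. MIR156e scored 400 for PI, 1000 to 2000 bp upstream, and 135 at a second peak in the farther window. The AP3 library had both peaks too, but with the higher score, 113, at the farther one and 63.4 at the nearer one. MIR156f scored 495 for PI and 91.6 for AP3, 2000 to 3000 bp upstream, with maxima 12 bp apart. MIR157a (AT1G66783) scored 64.8 for PI alone. TASIR-ARF (AT5G57735), a source of small RNAs that act on auxin response factor transcripts, scored 235 for PI and 223 for AP3 at chr5:23391538-23391985, with both maxima at the same base. The same peak lay 0 to 1000 bp upstream of AT5G57720.

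By gene type, 811 of the 2918 listed protein-coding loci (27.8%) and 25 of the 47 listed tRNA loci (53.2%) were bound only far upstream. Of those 25 tRNA loci, 17 shared the peak with a nearer window of another locus and 1 had a peak listed for no other locus. By the words in the authors' annotation, 45 of the 878 loci were described as a transcription factor (5.13%, beside 7.06% of all listed loci), 44 as a kinase (5.01%, beside 5.81%) and 29 as F-box (3.30%, beside 1.92%).

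The highest far upstream peaks shared by both proteins were in most cases listed for another locus as well. AT1G26771, which the authors' table does not annotate, scored 2607 for PI and 1417 for AP3 1000 to 2000 bp upstream, and that peak lay inside AT1G26773. AT1G24265, a locus of unknown function, scored 1551 and 1872 at a peak that the tables also list 2000 to 3000 bp upstream of SEP3, the gene of a MADS partner of the B-class proteins. AT5G44630, annotated by the authors as a sesquiterpene synthase of the floral scent, scored 1158 and 701, and its peak lay 0 to 1000 bp upstream of CYP706A3. AT3G04500, an RNA-binding protein gene, scored 1237 and 600 at a peak inside LSH2. AT5G13780, an acetyltransferase gene, scored 1051 and 554 at a peak 0 to 1000 bp upstream of the MADS-box gene AGL15.

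The rest of the 12 highest shared loci included further cases. MLP43, a gene of the major latex protein family, scored 927 and 625 at a peak 0 to 1000 bp upstream of CLE17. The tRNA locus AT5G25585 scored 946 and 776 at a peak inside AT5G25580. AT1G79075, an unknown gene in the annotation, scored 1295 and 588 at a peak downstream of its neighbours AT1G79060 and AT1G79070. AT5G66440 and LPPepsilon2 shared a peak of 1025 and 631 that is far upstream of each. Of the 12, 2 had a peak that no other locus is listed for, PG2 and LEJ2, beside 15.6% of all placed far upstream loci. The highest shared loci are thus close to the far upstream loci as a whole in this respect.

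At 136 of the 873 far upstream loci that could be placed (15.6%, 13.2 to 18.2), no library listed the peak for another locus. AT1G67340, a MYND zinc finger and F-box gene, had the highest PI peak of these, 3560 at chr1:25228708-25229280, 1000 to 2000 bp upstream. In the AP3 library this locus scored 49.0, rank 1275, against rank 2 in the PI library. PG2 (AT1G70370), annotated as a BURP-domain polygalacturonase gene, scored 2299 for PI and 981 for AP3 at chr1:26516650-26517384, with both maxima at the same base. SARK (AT4G30520), a leucine-rich repeat receptor kinase gene, scored 786 and 344 with both maxima at the same base. AT2G29970, annotated as related to heat shock proteins, scored 775 and 93.9. Further loci of this kind, named after their values were seen, were EXGT-A3 (AT2G01850; xyloglucan modification) with 543 and 474 and ATC (AT2G27550), a relative of the flowering repressor TFL1, with 521 and 251. PLT1 (AT3G20840), a stem-cell gene of the ANT family, scored 329 for PI alone.

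Across all far upstream loci, most peaks were listed nearer to another gene. A locus was tied to a peak by its chromosome and score where these belong to 1 peak, which placed 547 PI loci and 367 AP3 loci. Of the PI loci, 183 (33.5%, 29.5 to 37.6) had their peak 0 to 1000 bp upstream of another locus, 137 (25.0%, 21.5 to 28.9) inside another locus and 63 (11.5%, 8.96 to 14.5) downstream of another. A peak listed for several loci is counted once here, in the order inside, 0 to 1000 bp upstream, downstream. Another 64 had it only in far windows of other loci, and 100 (18.3%, 15.1 to 21.8) had no other locus. For AP3 the counts were 133, 96, 40, 36 and 62 in the same order. Taken over both libraries, 460 of 636 placed loci (72.3%, 68.7 to 75.8) had a peak in a nearer window of another locus.

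**Figure D2:**
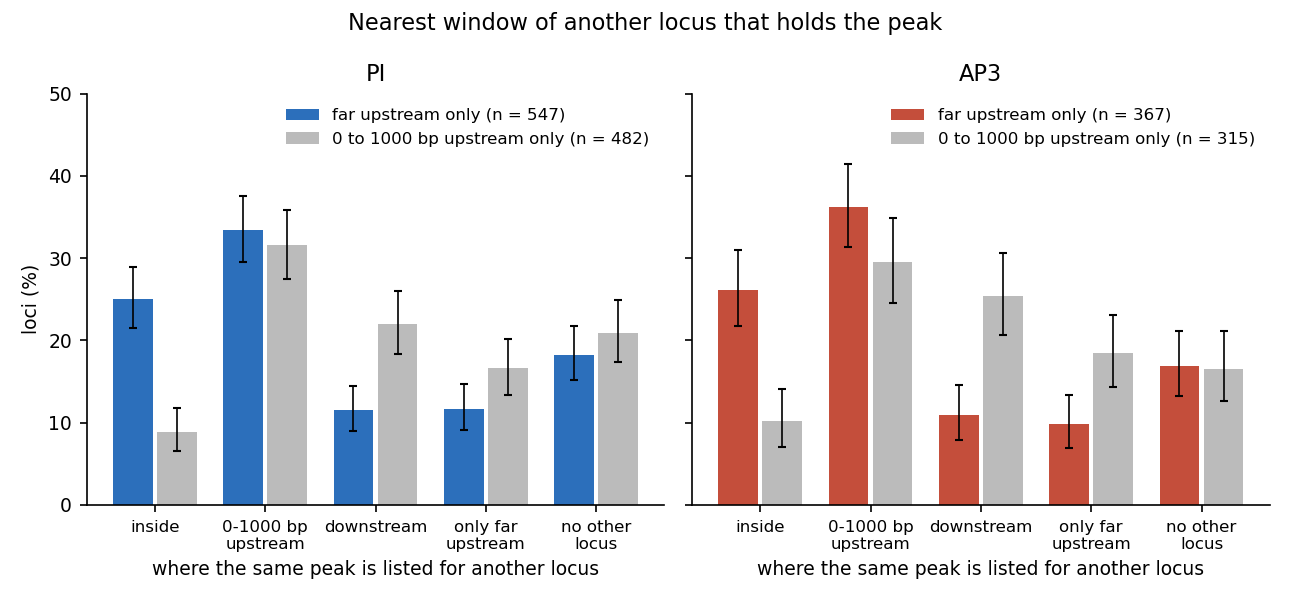
Share of placed loci (percent) whose peak is also listed for another locus, by the nearest kind of window there, for far upstream loci (colour) and loci with scores only 0 to 1000 bp upstream (grey) in each library, bars from 0 with 95% Clopper-Pearson intervals. Among far upstream loci 33.5% of PI and 36.2% of AP3 peaks lay 0 to 1000 bp upstream of another locus and inside none, and 18.3% and 16.9% had no other locus.

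Other classes shared peaks with a neighbour to differing degrees. The next shares count PI peaks that lay inside, 0 to 1000 bp upstream or downstream of another locus. They were 62.4% (58.0 to 66.8) of loci with scores only 0 to 1000 bp upstream and 70.0% (66.0 to 73.8) of far upstream loci. For the former class such a window need not be nearer than the locus's own. In 31.5% (27.4 to 35.9) of the former class the peak lay 0 to 1000 bp upstream of another locus and inside none. Peaks inside another locus were fewer in the former class, at 8.92% (6.53 to 11.8) against 25.0% (21.5 to 28.9), and peaks downstream of another locus more, at 22.0% (18.4 to 26.0) against 11.5% (8.96 to 14.5). The share with no other locus was 21.0% (17.4 to 24.9) and 18.3% (15.1 to 21.8), with overlapping intervals. The PI peak lay inside, 0 to 1000 bp upstream or downstream of another locus for 65.2% (59.7 to 70.4) of loci with scores only downstream. The shares were 48.0% (42.5 to 53.6) for windows of several kinds and 34.9% (28.8 to 41.3) for loci only inside the gene. Such a window need not be nearer than the locus's own in these classes either. Of the loci only inside the gene, 4.62% had the peak inside another locus, 16.0% 0 to 1000 bp upstream and 14.3% downstream of one. No other locus was listed for 18.0% of loci only downstream, 29.6% in windows of several kinds and 37.4% only inside the gene. For far upstream loci, the nearer locus was the next gene in locus order at 364 of 503 PI loci (72.4%) and 292 of 410 AP3 loci (71.2%). It was 2 steps away for 111 and 81. Far upstream loci also shared peaks with each other. The 728 PI loci with a position lay on 632 peaks, of which 92 served 2 or 3 such loci, and the 549 AP3 loci lay on 490 peaks, of which 57 did so.

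At 25 far upstream loci the nearer gene was a gene of the lists, with 22 such genes in all, and 14 of the 25 showed this in both libraries. They are 3.80% of the 658 loci with a nearer gene, beside 4.66% of all listed loci that are genes of the lists. The 22 include control genes such as TUA2, PSAF and GUN5, and the following were picked from them after their values were seen. Besides AGL15, the WD-40 repeat gene AT4G32990 scored 1085 for PI and 198 for AP3 at a peak 0 to 1000 bp upstream of ATH1, a homeodomain gene. AT3G02315 and AT3G02320 shared a peak of 542 and 331 that lay 0 to 1000 bp upstream of SEP2. AT3G15180 scored 390 and 275 at a peak 0 to 1000 bp upstream of the boundary gene CUC1. HVA22F scored 288 and 123 at the peak of SHP2, a carpel MADS-box gene, and RALFL34 scored 328 and 170 at that of HEC1, a relative of HEC2. The peaks of MENG (374 and 268) and AT1G70518 (229 and 168) lay inside the homeobox genes KNAT6 and KNAT2.

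The 33 far upstream genes of the lists differed from the other far upstream loci in this respect. For 23 of 33 (69.7%, 51.3 to 84.4) no library listed the peak for another locus, against 113 of 840 far upstream loci in no list (13.5%, 11.2 to 15.9). These intervals do not overlap. List genes had the higher share in the other classes as well. With scores only 0 to 1000 bp upstream, the shares were 15 of 27 list genes (55.6%, 35.3 to 74.5) and 126 of 715 others (17.6%, 14.9 to 20.6). Inside the gene they were 65.0% and 31.0%, in windows of several kinds 51.8% and 22.8%, and downstream 20.0% and 13.2%, where the intervals overlap. The lists were drawn up with results of these data known, neither this comparison nor the size of the gap between classes has a test, and the spacing of genes was not tested.

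**Figure D3:**
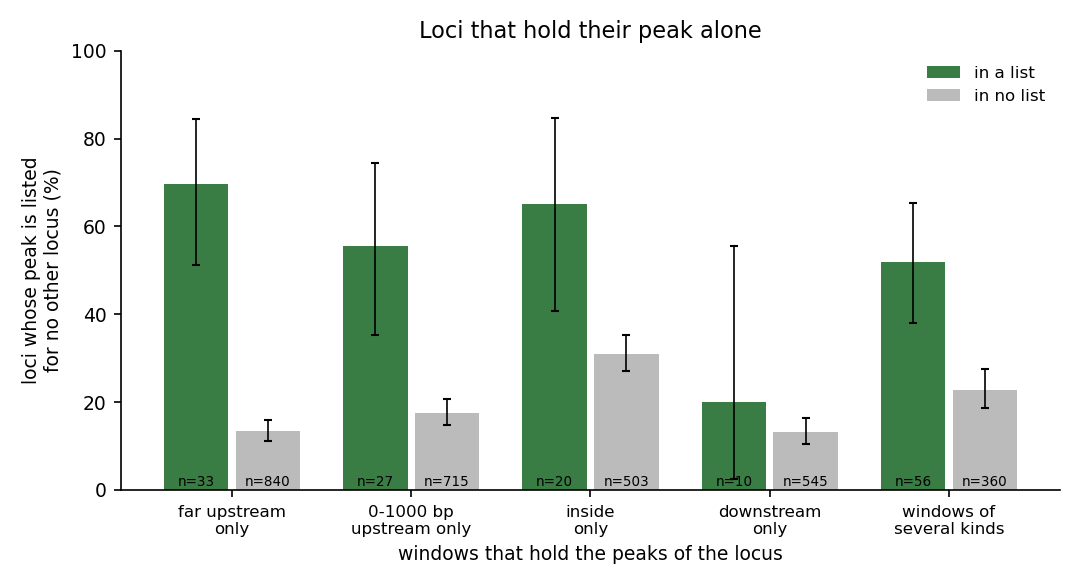
Share of loci (percent, bars from 0, with 95% Clopper-Pearson intervals) with a peak listed for no other locus, for genes of the lists and all other loci, by the window class of the locus. Far upstream list genes stand at 69.7% and other far upstream loci at 13.5%.

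Taken by the peak of each library alone, 126 PI loci had a peak listed for no other locus and 523 had one nearer to another gene. AP3 was listed as well at 63 of the 126 (95% interval 41.0 to 59.0%) and 295 of the 523 (56.4%, 52.0 to 60.7), with overlapping intervals. For AP3 these groups held 78 and 420 loci, and PI was listed as well at 85.9% (76.2 to 92.7) and 68.8% (64.1 to 73.2), where the intervals do not overlap. Median AP3 scores were 89.0 (59.5 to 112.8) and 56.7 (51.2 to 62.3), so the AP3 loci with the higher share also had the higher median score, and its part in the share was not tested. Median PI scores were 92.8 (74.0 to 125.7) and 81.5 (75.9 to 90.3).

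The rule keeps a locus in both tables only if both place it far upstream, so agreement of windows within the 410 shared loci is largely set by the choice and supports nothing. Of these loci, 375 had scores in the same windows, 161 of them only in the 1000 to 2000 bp window, 194 only in the farther one and 20 in both. For 404 loci the highest peak could be placed in each library, and the pair overlapped at 390 (96.5%, 94.3 to 98.1). Their maxima lay a median of 23 bp apart, 270 of them within 50 bp (66.8%, 62.0 to 71.4) and 59 at the same base. The median distance was 22 bp for loci with scores only 0 to 1000 bp upstream, and 67.6% (62.5 to 72.4) of those lay within 50 bp, a class chosen in the same way. For loci with scores in windows of several kinds, 75.2% (70.4 to 79.6) of pairs overlapped, with a median of 53 bp and 48.1% within 50 bp. That class takes in loci whose windows differ between the tables, so its lower agreement is partly set by the choice as well. At the 20 loci with a peak in both far windows of both tables, such as AP2, MIR156e and TASIR-ARF, 39 of 40 peak pairs overlapped, and the higher peak was in the same window at 17.

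The 10 loci with no far window in common were not at separate sites. At all 10 the peaks of the libraries overlapped, with maxima 35 to 286 bp apart, so they fell on either side of the 2000 bp border. SMT3 is an example, with PI at 79.5 in the farther window, AP3 at 36.8 in the nearer one and maxima 161 bp apart.

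Scores of the libraries rose together over the 410 shared loci, with Spearman's rho of 0.71 and Pearson's r of 0.72 on log2 scores. This describes 410 loci on 360 different PI peaks in a single pair of libraries called against the same control, and the values over all 1558 shared loci were 0.71 and 0.75. The loci named next had the largest differences between their ranks in the tables, which hold 2544 and 2146 loci. Toward PI they were AT1G67340, UKL4 (194 for PI and 29.5 for AP3), a uridine kinase family gene, and AT1G26300 (198 and 37.3), whose PI peak lies inside the meristem identity gene CAL. The UKL4 peak also lay 0 to 1000 bp upstream of AT4G26488 in both libraries. By the ratio of scores other loci come before UKL4 and AT1G26300, among them AT2G29970 (775 and 93.9) and AT1G10740 (432 and 51.2). Toward AP3 the largest difference was at OTP70, a pentatricopeptide repeat gene, with 56.5 for PI and 348 for AP3, rank 1780 against rank 164. The OTP70 peak also lay 0 to 1000 bp upstream of AT4G25280 and downstream of AT4G25290 in both libraries. The neighbours AT5G66940, a Dof zinc finger gene, and AT5G66950 shared a peak of 34.9 and 76.8.

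**Figure D4:**
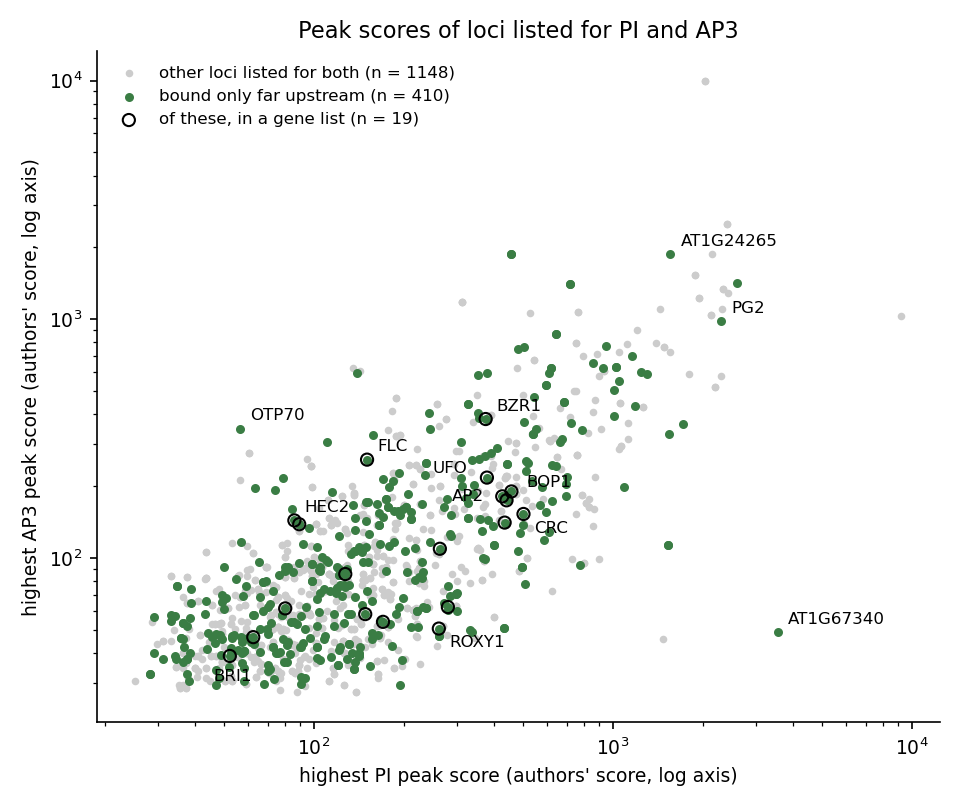
Highest PI score against highest AP3 score (authors' scores, both log axes) for the 1558 loci listed for both proteins, 1 point per locus, with the 410 far upstream loci in green and the 19 of these in a gene list ringed. Most points follow 1 trend, and AT1G67340 and OTP70 lie far from it in opposite directions.

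Whether the partner was listed went with the score. With the targets of each table cut by score into 4 groups of like size, from the lowest to the highest PI scores, 23.6%, 44.8%, 67.0% and 88.4% of far upstream PI loci were AP3 targets as well. All other PI targets gave 32.0%, 53.1%, 76.9% and 91.5%. In the lowest group the intervals were 17.8 to 30.2 and 27.6 to 36.5, so they overlap. For AP3 the shares were 33.9%, 70.6%, 86.4% and 98.0% of far upstream loci and 37.5%, 66.7%, 90.4% and 96.1% of the others. Loci with scores in windows of several kinds, 84.2% of which were listed for both, are among the others. These others can enter through a nearer or an inner window as well. A far upstream locus listed for both had to pass the rule in each table. The 57 loci that passed in 1 table and failed in the other are listed for both and count among the others. Part of the difference between the groups is thus set by the choice.

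**Figure D5:**
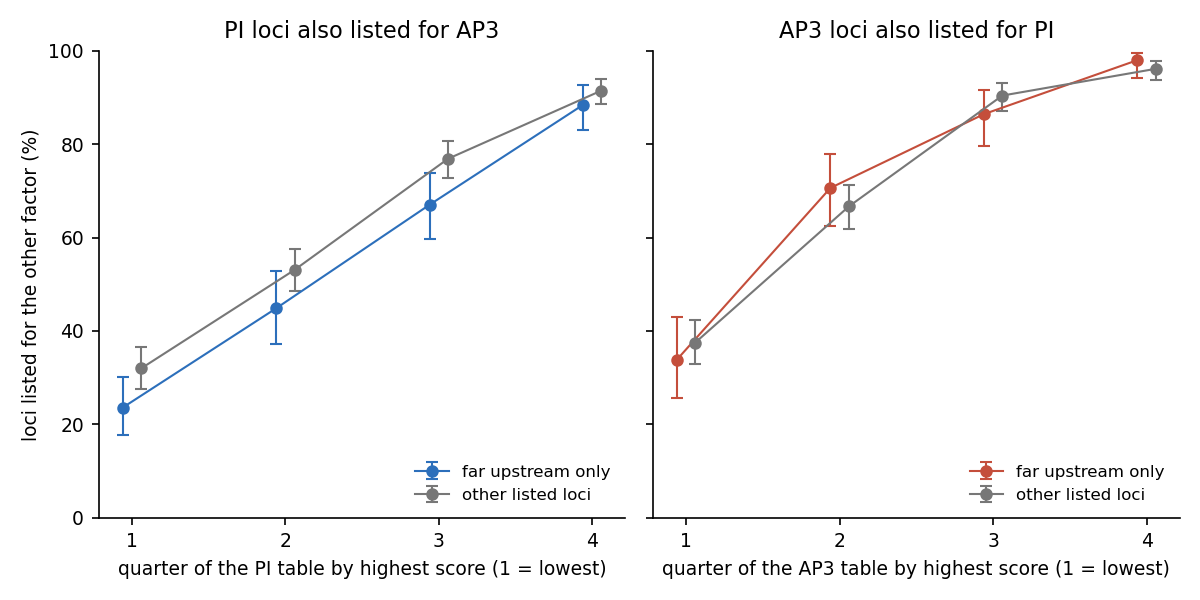
Share of loci listed for both proteins (percent, with 95% Clopper-Pearson intervals) by group of the highest score (4 groups of like size per table), for far upstream loci and all other listed loci, PI on the left and AP3 on the right. The share of far upstream loci climbs from 23.6% to 88.4% for PI and from 33.9% to 98.0% for AP3.

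Seen by peaks rather than loci, the far upstream sites overlapped the other library about as often as other sites. Of the PI peaks placed by score alone, 293 of 479 (61.2%, 56.6 to 65.6) overlapped an AP3 peak, against 64.1% (60.2 to 67.8) of those of other loci. In the AP3 library 279 of 330 such peaks (84.5%, 80.2 to 88.3) met a PI peak, against 83.4% (79.7 to 86.7). Over all peaks the shares were 55.3% for PI and 69.5% for AP3. A score that belongs to several peaks gives no position here, and with loci also placed by their order along the chromosome the shares were 55.5% for PI and 72.7% for AP3. Median widths were 331.5 bp for PI and 264.5 bp for AP3, beside 335 and 257 bp over all peaks.

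The loci listed for only 1 protein included strong peaks. The highest for PI alone were VAMP713, a vesicle SNARE gene, with 611, the defensin-like gene AT1G49715 with 540, and COV1, a gene of stem vascular patterning, with 534. At COV1 the AP3 library had a peak at the same site, listed for AT2G20142 with 210 and not for COV1. There AP3 has a peak too, with a lower score and listed for another gene. Peaks of 4 of 320 placed loci listed for PI alone, and of 3 of 143 listed for AP3 alone, overlapped a peak of the other library in this way. Next came SAMC1, which encodes a plastid transporter of S-adenosylmethionine, with 513, and AT5G57170 with 423. AT1G49715 had a second PI peak of 286. The highest for AP3 alone were lower in rank. The xylan synthesis gene IRX9 and its neighbour AT2G37110 shared a peak of 173, rank 377, followed by AT4G14600 with 135, NSP3 with 119 and NCS1 with 108. VAMP713 was rank 155 of the PI targets. Most of these highest peaks were also listed in a nearer window of another locus. They lay 0 to 1000 bp upstream of APT5 (VAMP713), RPT2b (COV1), and AT4G39470 and CYP96A9 (SAMC1). The others lay 0 to 1000 bp upstream of AT2G37100 (IRX9 and AT2G37110), PAB6 (NSP3) and IREG2 (NCS1). The peaks of COV1 and AT4G14600 lay inside LCV1 and emb2739. Those of AT1G49715 and AT5G57170 were listed elsewhere only far upstream, of ABF1 and CIA2.

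Close to the border of the rule, 57 loci had scores only far upstream in 1 table and other windows in the other, 22 of them in PI and 35 in AP3. For 12 of these the other table places an overlapping peak 0 to 1000 bp upstream. An example is PHYA, the phytochrome A gene, with AP3 at 222 in the 1000 to 2000 bp window and PI at 440 in the 0 to 1000 bp window. For 30 the far peak was shared and a further peak was listed elsewhere. ETT (830 for PI and 177 for AP3 far upstream) was left out by a PI score of 82.8 inside the gene, and AGL6 (370 and 96.8) by a PI score of 135 downstream. For the other 15 no overlapping peak of the locus was in the other table. A further 49 loci had their highest score far upstream with a lower score in another window, or an equal one at PMD2 (34.7 for AP3). Among these were IDD7 (2407 for PI and 2507 for AP3) with 144 and 131 in the 0 to 1000 bp window, and SVP, a MADS-box repressor of flowering (1051 and 447), with 414 and 144 inside the gene.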

How the data were processed

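Values came from the authors' tables for the PI-GFP and AP3-GFP libraries. Per the submitters' processing notes the tools were BWA 0.6.1 and SAMtools on TAIR10; no source used here names the peak caller, its cut-off or the gene annotation. The deposited score is a peak score, called Poisson per the file headers, and the authors' target tables give the highest score in 5 windows per locus, with 0 for none. A peak can extend beyond its window. The depth is unknown, since no read numbers were used.

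Members are the 878 loci of the rule given at the start of the report. The members and the gene lists were chosen with earlier results of these data known. A locus was tied to a peak by chromosome and identical score where these belong to 1 peak, which placed 961 of 1365 window entries of the members. An alternative added after seeing the data also used the order of locus names between 3 anchors on each side with a margin of 10000 bp, and placed 1353. Left out in turn, all 3731 entries placed by score alone fell inside the interval of their anchors. Other loci listed for the same peak stayed among the anchors, so this does not test how repeated scores were placed. The placing of the PI peaks of FLC, SPL, TTG2, IAA2 and SPL4 and the AP3 peaks of ROXY1 and TCP12 rests on that order. So do the distances and other loci given for these and some further loci. The counts by gene order, by peak, by list and by distance of maxima rest on it too. The interval printed for FLC is its AP3 peak, which was placed by score alone. Locus names were paired with symbols through RefSeq (assembly TAIR10.1), whose table matched 860 of the 878 loci, and none of its coordinates were used.

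Genes were named by a rule. It took the 12 shared loci with the best ranks in both tables, the 5 highest loci of each protein alone, up to 5 members per gene list, the 5 highest with a peak listed for no other locus and the 3 with the most unequal ranks in each direction. The far upstream members of the lists beyond 5 are named too. Peaks overlapped where they shared at least 1 bp. Alternatives were a score at or above the median peak score, protein-coding loci only, each table alone, a nearer window without the downstream one, repeated scores, a reciprocal overlap of 50% and maxima at most 100 bp apart. The calculations used Python 3.11.15, pandas 2.3.3, scipy 1.17.1 and numpy 2.4.6, and were tested on simulated data.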

Additional observations from a re-analysis of the deposited data

How the results depend on the processing

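Of 26 alternatives tried, 13 left the value within its 95% interval or within 1.5 times for the number of loci, and 13 moved it. Keeping only scores at or above the median peak score of the library gave 478 loci, of which 52.3% were listed for both proteins, 67.1% had the peak in a nearer window of another locus and 85.5% of placed peaks overlapped the other library. Median scores were then 180.0 for PI and 124.2 for AP3, as the removal of low scores requires. Without the downstream window, 60.8% of loci had their peak nearer to another locus, and with repeated scores counted 80.6%. The overlap between libraries was 61.7% with the PI table alone, 84.8% with the AP3 table alone, 57.1% at a reciprocal 50%, 61.7% with maxima at most 100 bp apart and 63.0% with loci also placed by locus order. The share of peaks with a CArG box was not run, since no genome sequence was used here. No paired analysis was possible because each factor has 1 library. Depth, the peak caller and the spread between plants limit every value, and an unlisted locus may lie under the authors' threshold.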
